A study of Mus musculus with 27 samples.

Results

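The genes described are 9 components of the bone morphogenetic protein (BMP) pathway, chosen by symbol: the ligands Bmp2, Bmp4, Bmp6, and Bmp7, the antagonist Grem1, the inhibitory Smads Smad6 and Smad7, and the target genes Id1 and Id3. Of these, 8 have a row in both count tables, which hold 22855 genes each, and Grem1 was not analysed here. RNA-Seq was performed on 12 samples of cardiac fibroblasts sorted for PDGFRα and on 15 whole heart samples, all from C57Bl/6 mice, with no treatment named in the labels. The ages were postnatal day 1, 4 and 14 weeks, and 1 and 1.5 years. Cardiac fibroblasts had 3 samples at postnatal day 1 and at 4 weeks and 2 at each later age, and whole hearts had 3 samples at every age. The fibroblasts came from ventricles freed of atria and valves, which were digested with enzyme before the sort, whereas RNA of the whole hearts was taken from heart tissue without a sort. The question asked of the design was how expression changes with age in each tissue, and it is put here to the BMP genes.

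BMPs are secreted growth factors of the TGF-β superfamily that bind paired serine/threonine kinase receptors, which phosphorylate Smad1, Smad5, and the related Smad encoded by Smad9. These enter the nucleus with Smad4 and activate target genes, of which the Id genes, inhibitors of basic helix-loop-helix transcription factors, are the usual readout. Signaling is held back outside the cell by antagonists that trap the ligand, such as gremlin, noggin, and chordin, and inside it by Smad6 and Smad7. In the heart, BMPs are best known for their part in the formation of cardiomyocytes, valves, and septa before birth.

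Levels are given as counts-per-million (CPM), scaled by the TMM method within each tissue. Total counts per sample were 54615898 to 76758831 for cardiac fibroblasts and 46091271 to 67984404 for whole hearts, and genes of the mitochondrial genome took 1.74% to 9.18% and 10.8% to 34.5% of them. The sorted cells carried fibroblast markers, with Pdgfra between 784 and 1367 CPM against 28.6 to 62.0 CPM in whole hearts. The summed level of 10 endothelial markers set apart replicate 3 of 4 weeks (2222 CPM) and replicate 5 of 1.5 years (1639 CPM) from the other samples of their ages (360 to 756 CPM), and it was 1582 and 1874 CPM in both 14-week samples. Genes of the immediate early and heat shock classes can respond to cell isolation, and the sum of 10 of them was 12040 to 17000 CPM in the fibroblasts of postnatal day 1 and 27910 to 40970 CPM at the later ages, against 155 to 573 CPM in whole hearts. The fibroblasts of postnatal day 1 were also apart from all later ones in the sums of 5 proliferation genes (321 to 508 CPM against 5.00 to 143 CPM), 8 cardiomyocyte markers (645 to 725 CPM against 14.7 to 197 CPM), and 10 fibroblast markers (34200 to 42400 CPM against 58620 to 74770 CPM). These sums therefore moved with every fibroblast comparison against postnatal day 1, and their part in the results was not tested. Whole hearts of postnatal day 1 were likewise apart from all later ones in several sums. The cardiomyocyte sum was 33160 to 39430 CPM there and 65000 to 91310 CPM later. The fibroblast sum was 1421 to 1702 and 1997 to 3328 CPM, and the proliferation sum 185 to 244 and 4.18 to 55.6 CPM. That of macrophage and leukocyte markers was 47.6 to 63.4 and 262 to 575 CPM. The part of these heart sums in the heart comparisons was not tested. All 10 genes of the endothelial and of the immediate early list had a row, and none was at 3 counts or fewer in every fibroblast sample. The Y-linked gene Ddx3y was at most 0.397 CPM in every sample of 1.5 years, and Xist at most 0.570 CPM in every sample of 14 weeks and 1 year. Ddx3y was at 35.47 to 98.99 CPM at 14 weeks and 1 year, so that these 2 ages had the same pattern. Every younger sample held both genes. In the fibroblasts of postnatal day 1 and 4 weeks, Xist was at least 137 CPM and Ddx3y at least 24.75 CPM. In hearts, Xist and Ddx3y were at least 124 and 4.58 CPM at postnatal day 1, and at least 6.475 and 1.64 CPM at 4 weeks. This is the pattern of RNA from both sexes, so that a single animal per sample cannot be assumed there. Sex is not among the labels, and in comparisons of 1.5 years with another age, or of 14 weeks or 1 year with the younger ages, it cannot be told apart from age.

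On GRCm38, Bmp2 lies on chromosome 2 from 133552159 to 133562885 (plus strand), Bmp4 on chromosome 14 from 46383520 to 46390669 (minus strand), and Bmp6 on chromosome 13 from 38345107 to 38500302 (plus strand). Bmp7 lies on chromosome 2 from 172868012 to 172940321 (minus strand), and Smad6 on chromosome 9 from 63953076 to 64022059 (minus strand). Id1 lies on chromosome 2 from 152736251 to 152737410 and Id3 on chromosome 4 from 136143497 to 136145755, both on the plus strand. All of these are protein-coding, and Bmp2, Bmp7, and Id1 share chromosome 2. Exons of opposite-strand genes overlap 4.0% of the Bmp4 exon bases (Gm15217) and 5.7% of those of Bmp6 (Txndc5). The strand setting of the counts is not given in the sources used here, so reads in those stretches cannot be assigned with certainty.

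The sequences just upstream of Bmp4 and Smad6 are shown because, in cardiac fibroblasts, the levels of these genes lay at opposite ends at postnatal day 1, Smad6 at its highest and Bmp4 at its lowest mean. Each holds the 250 bases before the RefSeq start site, read 5′ to 3′ on the gene's strand in GRCm38.p6, and no annotated exon overlaps either. Capitals mark matches on either strand to the Smad-binding letters GTCT and to the BMP-responsive letters GGAGCC, with no match of GGCGCC in either window and no overlap between matches.
Bmp4, chr14:46390670-46390919, minus strand: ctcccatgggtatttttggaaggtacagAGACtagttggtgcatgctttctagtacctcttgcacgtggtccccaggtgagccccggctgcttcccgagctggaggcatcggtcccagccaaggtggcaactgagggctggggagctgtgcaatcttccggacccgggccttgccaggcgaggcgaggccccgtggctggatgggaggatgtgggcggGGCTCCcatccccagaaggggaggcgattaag
Smad6, chr9:64022060-64022309, minus strand: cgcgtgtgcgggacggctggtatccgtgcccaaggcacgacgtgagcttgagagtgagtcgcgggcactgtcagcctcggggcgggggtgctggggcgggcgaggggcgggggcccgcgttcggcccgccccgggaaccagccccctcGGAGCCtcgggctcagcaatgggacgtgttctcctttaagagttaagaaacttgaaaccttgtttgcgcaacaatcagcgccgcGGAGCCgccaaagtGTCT
The Smad6 window held 2 matches of GGAGCC and 1 of GTCT, which ended at the last base before the start site. The Bmp4 window held 1 match of each, and its GGAGCC match, on the opposite strand, ended 27 bases before the start site. Among the 32851 upstream windows of the same length in the RefSeq table, 82.9% held GTCT, 26% held GGAGCC, and 9.59% held GGCGCC, so the GTCT match is what most windows have. These matches are descriptions of the letters and not of binding.

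In cardiac fibroblasts, 5 of the 8 members differed among the 5 ages, namely Bmp2, Bmp4, Bmp6, Smad6, and Id3 (adjusted p under 0.05 in edgeR's quasi-likelihood test), where 19.9% of the 18759 genes tested did. In bulk samples, fewer cells of a type and less RNA per cell cannot be told apart. From postnatal day 1 to 4 weeks, Bmp2 and Smad7 rose and Smad6 fell, 3 of 8 members beside 15.5% of all genes. From 4 to 14 weeks Bmp2 and Id3 fell, 2 of 8 beside 3.87%, and from 14 weeks to 1 year Id3 rose, 1 of 8 beside 1.78%. Between 1 year and 1.5 years no member passed in edgeR or in DESeq2, against 0.24% of all genes, and 1 member, Bmp2, had an unadjusted p under 0.05. Over the whole interval, 1.5 years against postnatal day 1, Bmp2, Bmp4, Bmp6, Smad7, and Id3 rose and Smad6 fell, 6 of 8 beside 16.3%. A setting added after the data were seen left out the 2 libraries that endothelial markers set apart from the others of their ages. It left only replicate 4 at 1.5 years. The members that passed then changed. Smad7 dropped out at 4 weeks, Id3 from 4 to 14 weeks, and Bmp4 and Smad7 over the whole interval. Id1 came in over all ages and, as lower, at 4 weeks (log2 fold change -0.80), at 1 year against 14 weeks (-0.89), and over the whole interval (-1.35). Bmp4 came in as higher from 4 to 14 weeks (1.13). Both 14-week samples, with endothelial sums of 1874 and 1582 CPM, stayed in this setting. The sums left at 4 weeks were 756 and 656 CPM, and those at 1 year were 584 and 803 CPM. Endothelial sums thus differed between the ages at the steps into and out of 14 weeks, and their part was not tested. With replicate 4 of 1.5 years left out, 3 passed over the whole interval, and with either 14-week sample left out, none passed at the steps into and out of 14 weeks.

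**Figure D1:**
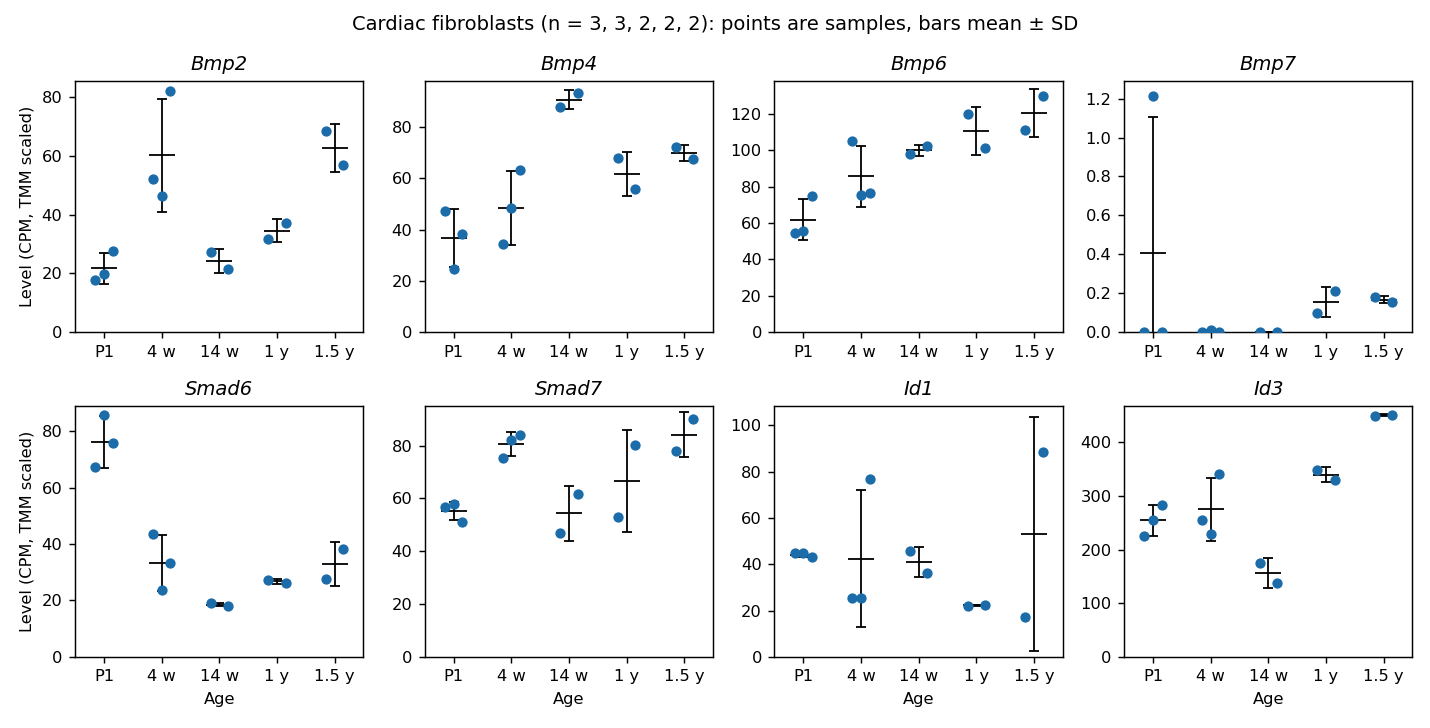
Levels of the 8 members in cardiac fibroblasts by age (horizontal axis), in TMM-scaled CPM (vertical axis, from 0), with 1 point per sample and bars for the mean and SD over 3, 3, 2, 2, and 2 samples. Smad6 was at 67.2 to 85.7 CPM in the samples of postnatal day 1 and at 18.1 to 43.4 CPM in all later ones, and Id1 had a single high sample at 4 weeks and at 1.5 years.

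In whole hearts, Bmp4, Bmp6, Bmp7, Id1, and Id3 differed among the ages, 5 of 8 members beside 34.3% of the 17995 genes tested. Without replicate 2 or replicate 3 of postnatal day 1, 2 and 3 members did. From postnatal day 1 to 4 weeks Bmp6 rose and Bmp7 fell, 2 of 8 beside 18.2%. No member passed at any of the later steps in edgeR. From 4 to 14 weeks (1.61% of all genes passed) no member had an unadjusted p under 0.05 either, from 14 weeks to 1 year (0.972%) 2 members had, and from 1 year to 1.5 years (2.66%) 3 had. DESeq2 called no member at the first and second of these steps and 1, Bmp7, at the last. Between postnatal day 1 and 1.5 years, Bmp4, Bmp6, Id1, and Id3 rose and Bmp7 fell, 5 of 8 beside 31.8%. In whole hearts the median change of all genes depended on scaling, and library size scaling moved it by -0.51 on the log2 scale at 4 weeks and by -0.60 at 1.5 years against postnatal day 1. Under that scaling, 2 members passed at 1.5 years, Bmp7 and Smad6, both as lower.

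**Figure D2:**
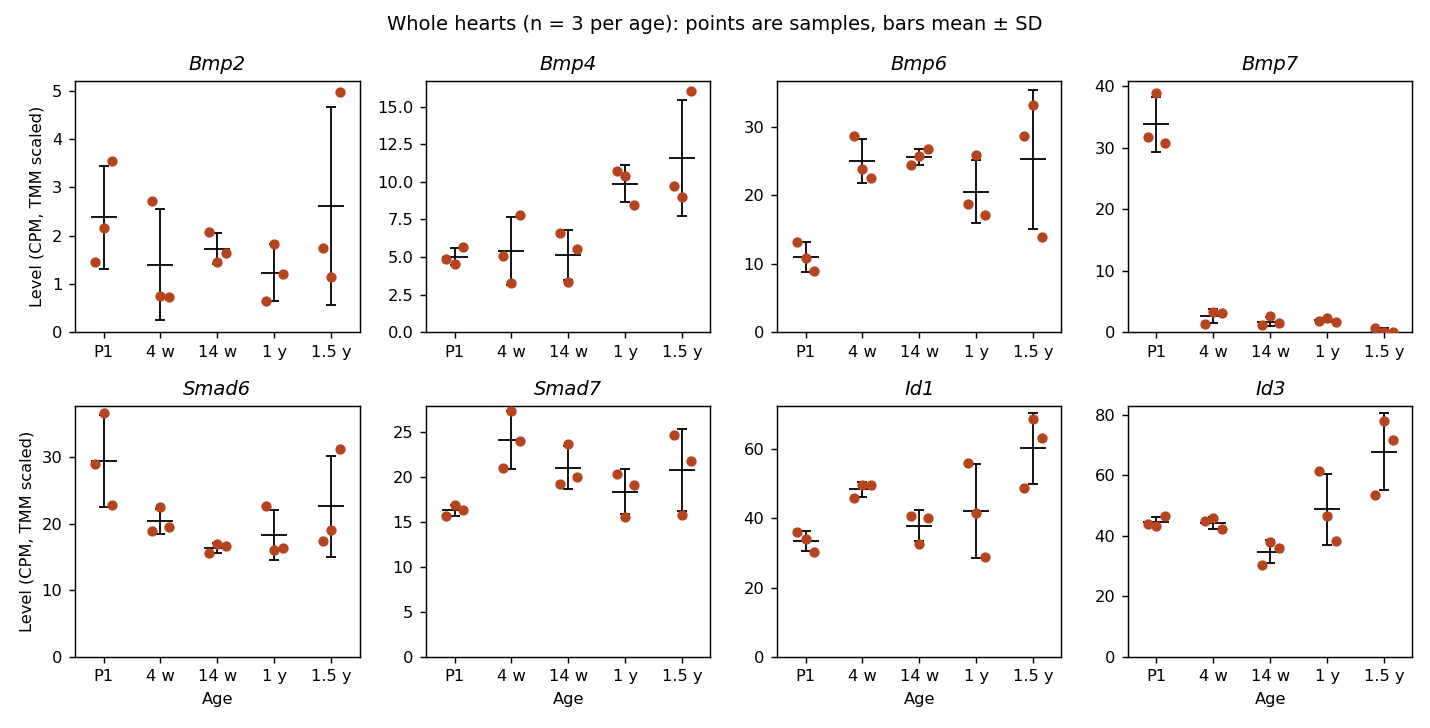
Levels of the 8 members in whole hearts by age (horizontal axis), in TMM-scaled CPM (vertical axis, from 0), with 1 point per sample and bars for the mean and SD (n = 3). Bmp7 was at 30.7 to 38.9 CPM at postnatal day 1 and at most at 3.33 CPM in every later sample.

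Bmp2 encodes a ligand that drives bone formation and, in the embryo, the formation of the heart cushions. In cardiac fibroblasts its level was 17.9, 19.7, and 27.7 CPM at postnatal day 1 and 52.0, 46.3, and 82.2 CPM at 4 weeks. It was 27.2 and 21.4 CPM at 14 weeks, 31.8 and 37.2 CPM at 1 year, and 68.4 and 57.0 CPM at 1.5 years. The samples of 4 weeks and 1.5 years overlapped each other and lay above all others, so that the course had 2 high ages with lower ones between. The mean rose from 21.8 ± 5.23 (SD, n = 3) to 60.2 ± 19.3 CPM (SD, n = 3) at 4 weeks, which is 1.47 on the log2 scale (SE 0.24, adjusted p = 0.0011). It fell by 1.31 on the log2 scale at 14 weeks (SE 0.28, adjusted p = 0.0219), a call that was lost without replicate 4 or replicate 6 of 14 weeks (adjusted p = 0.112 and 0.25) and in a fit of only those 2 ages (adjusted p = 0.0601). At 1.5 years Bmp2 was 1.53 above postnatal day 1 on the log2 scale (SE 0.26, adjusted p = 0.00127). Whole hearts held little Bmp2, between 0.649 and 4.97 CPM with a median of 1.64, and the samples of all ages overlapped. Its difference there from postnatal day 1 was -0.77 at 4 weeks (SE 0.82, adjusted p = 0.588) and 0.14 at 1.5 years (SE 0.82, adjusted p = 0.925).

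Bmp4, a ligand close to Bmp2 in sequence, was at 47.1, 24.6, and 38.1 CPM in the fibroblasts of postnatal day 1 and at 34.2, 48.4, and 63.0 CPM at 4 weeks. It reached 87.9 and 93.3 CPM at 14 weeks, and was 67.8 and 55.6 CPM at 1 year and 72.2 and 67.7 CPM at 1.5 years. The 14-week samples lay above all others, and those of postnatal day 1 and 4 weeks overlapped. Both 14-week samples also had raised endothelial sums (1874 and 1582 CPM). Replicate 3 of 4 weeks, with an endothelial sum of 2222 CPM, held 63.0 CPM of Bmp4. The part of these markers in the Bmp4 level was not tested. The step from 4 to 14 weeks, 0.90 on the log2 scale (SE 0.27, adjusted p = 0.0944), passed without replicate 3 of 4 weeks (1.13, adjusted p = 0.0405) and without replicate 2 of postnatal day 1 (0.91, adjusted p = 0.0407). The test over all ages (adjusted p = 0.0223) did not pass without either 14-week sample or replicate 3 of postnatal day 1 (adjusted p between 0.0551 and 0.0802). At 1.5 years Bmp4 was higher than at postnatal day 1 by 0.93 (SE 0.27, adjusted p = 0.0309). This call was lost without either 1.5-year sample or without replicate 2 or 3 of postnatal day 1 (adjusted p between 0.0624 and 0.127) and under scaling by library size only (0.72, adjusted p = 0.0906), which moved the median of all genes by -0.15.

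In whole hearts Bmp4 was at 4.83, 4.56, and 5.66 CPM at postnatal day 1, at 5.07, 3.29, and 7.79 CPM at 4 weeks, and at 6.59, 3.31, and 5.55 CPM at 14 weeks. It was at 10.7, 10.4, and 8.48 CPM at 1 year and at 9.74, 8.96, and 16.1 CPM at 1.5 years. All samples of 1 year and 1.5 years lay above all younger hearts on this TMM scale. The sum of 10 fibroblast markers was 1421 to 1702 CPM in the hearts of postnatal day 1 and 2812 to 3261 CPM in those of 1.5 years, that of 8 macrophage and leukocyte markers was 47.6 to 63.4 and 436 to 575 CPM, and their part in the Bmp4 result was not tested. Against postnatal day 1 the log2 fold change at 1.5 years was 1.21 (SE 0.38, adjusted p = 0.0226). Without replicate 3 of 1.5 years it was 0.90 (adjusted p = 0.105), without replicate 1 or 2 of postnatal day 1 it was 1.25 and 1.20 (adjusted p = 0.0521 and 0.0667), and with library size scaling it was 0.60 (adjusted p = 0.235). The test over all ages (adjusted p = 0.0286) did not pass without replicate 2 of postnatal day 1, replicate 3 of 14 weeks, replicate 1 or 2 of 1 year, or replicate 3 of 1.5 years (adjusted p between 0.0502 and 0.0728).

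Bmp6, a ligand known for its control of iron balance through hepcidin, was in cardiac fibroblasts at 54.7, 55.8, and 74.8 CPM at postnatal day 1, at 105, 75.3, and 76.7 CPM at 4 weeks, and at 97.9 and 102 CPM at 14 weeks. It was at 120.2 and 101 CPM at 1 year and at 111 and 130.2 CPM at 1.5 years. The means increased from each age to the next, with the samples of neighboring ages overlapping after 4 weeks. The immediate early and heat shock sum was likewise lowest at postnatal day 1 and highest at 1.5 years (38700 to 40970 CPM), and its part in the levels of Bmp6, and of Bmp2 and Bmp4, which also had their lowest means at postnatal day 1, was not tested. The log2 fold change was 0.47 at 4 weeks (SE 0.17, adjusted p = 0.0813) and 0.97 at 1.5 years (SE 0.19, adjusted p = 0.00279), both against postnatal day 1. The first of these passed without replicate 3 of postnatal day 1 (0.63, adjusted p = 0.0304), and the test over all ages (adjusted p = 0.0125) did not pass without replicate 2 of postnatal day 1 (adjusted p = 0.0529).

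In whole hearts Bmp6 was at 13.2, 10.8, and 8.95 CPM at postnatal day 1 and at 28.6, 23.9, and 22.5 CPM at 4 weeks. The later ages had 24.4, 25.8, and 26.7 CPM at 14 weeks, 18.7, 25.8, and 17.1 CPM at 1 year, and 28.6, 33.2, and 13.9 CPM at 1.5 years. Every later sample lay above those of postnatal day 1 on this TMM scale. The rise at 4 weeks was 1.19 on the log2 scale (SE 0.28, adjusted p = 0.00596) and that at 1.5 years was 1.20 (SE 0.28, adjusted p = 0.00332). Under library size scaling these were 0.67 (adjusted p = 0.0928) and 0.62 (adjusted p = 0.0919), and neither passed. The test over all ages (adjusted p = 0.0129) did not pass without replicate 2 or 3 of postnatal day 1 (adjusted p = 0.0568 and 0.0743).

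Bmp7, a ligand with a known part in kidney and skeletal development, was the member with the largest change in whole hearts. It was at 31.7, 38.9, and 30.7 CPM at postnatal day 1, which are 2909, 3769, and 2856 counts. At 4 weeks it was at 1.27, 3.33, and 3.09 CPM, at 14 weeks at 1.18, 2.56, and 1.44 CPM, and at 1 year at 1.85, 2.34, and 1.64 CPM. The 1.5-year hearts held 40, 2, and 0 counts, or 0.736, 0.0318, and 0 CPM, below every sample of the other ages. The mean thus went from 33.8 ± 4.45 (SD, n = 3) to 2.57 ± 1.12 CPM (SD, n = 3) at 4 weeks, which is -3.71 on the log2 scale (SE 0.83, adjusted p = 0.00444). At 1.5 years it was 0.256 ± 0.416 CPM (SD, n = 3), and the fitted log2 fold change against postnatal day 1 was -7.07 (SE 1.00, adjusted p = 4.8e-05). That size rests on the 40 counts of replicate 1, without which the group is at 2 and 0 counts, no fold can be given, and the difference still passed (adjusted p = 1.38e-07). The same sample decided the step from 1 year to 1.5 years, which did not pass with it (-2.95, SE 0.86, adjusted p = 0.0761) and passed without it (adjusted p = 0.000773). Markers of the mesothelium and epicardium, with 7 of 7 genes measured, had a summed level of 65.1 to 112 CPM in the hearts of postnatal day 1 and 15.1 to 68.9 CPM later. The defining markers Msln and Upk3b were at 15.4 to 31.9 and 18.7 to 35.7 CPM in those youngest hearts. In the later ones they were at 2.78 to 15.35 and 5.16 to 34.2 CPM. Upk3b thus reached into the youngest range, and Msln did not. The part of these markers, and of the heart sums given above, in the Bmp7 result was not tested.

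Cardiac fibroblasts held almost no Bmp7. Of the 12 samples, 6 had 0 counts, which allows up to 3 counts, 1 sample of 4 weeks had 1 count, and replicate 2 of postnatal day 1 had 83 counts (1.22 CPM). The samples of 1 year held 7 and 13 counts and those of 1.5 years 11 and 10 counts. No age comparison of Bmp7 passed in fibroblasts, and no fold change is given because the 4-week and 14-week samples were all at or under 3 counts.

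Smad6 encodes an inhibitory Smad that acts mainly on BMP signaling and is itself a BMP target. In cardiac fibroblasts it was at 67.2, 85.7, and 75.9 CPM at postnatal day 1, at 43.4, 23.6, and 33.1 CPM at 4 weeks, and at 19.0 and 18.1 CPM at 14 weeks. It was at 27.4 and 26.1 CPM at 1 year and at 27.4 and 38.4 CPM at 1.5 years. All 3 samples of postnatal day 1 lay above every later sample, and the 14-week samples were the lowest. The log2 fold change against postnatal day 1 was -1.19 at 4 weeks (SE 0.22, adjusted p = 0.00237) and -1.21 at 1.5 years (SE 0.25, adjusted p = 0.00463). The latter was -0.99 (adjusted p = 0.0673) without replicate 4 of 1.5 years. The step from 4 to 14 weeks was -0.85 on the log2 scale (SE 0.25, adjusted p = 0.0872), and it passed without replicate 2 of 4 weeks (-1.05, adjusted p = 0.0327). The immediate early and heat shock sum split the fibroblast samples at the same place, at most 17000 CPM in the 3 samples of postnatal day 1 and at least 27910 CPM in all later ones, and the other sums that separated postnatal day 1, given above, did so too. Their part in the Smad6 difference was not tested.

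In whole hearts Smad6 was at 29.0, 36.6, and 22.8 CPM at postnatal day 1 and between 15.6 and 22.7 CPM at 4 weeks, 14 weeks, and 1 year. At 1.5 years it was at 17.4, 19.1, and 31.3 CPM, so that replicate 3 of 1.5 years lay among the youngest hearts. The log2 fold change was -0.54 at 4 weeks (SE 0.24, adjusted p = 0.147) and -0.38 at 1.5 years (SE 0.24, adjusted p = 0.244), both against postnatal day 1. Without replicate 3 of 1.5 years the second was -0.69 (adjusted p = 0.0385). Scaling by library size only gave -1.05 (adjusted p = 0.00487) at 4 weeks and also passed at 1.5 years (adjusted p = 0.00361). The test over all ages (adjusted p = 0.0696) passed without replicate 1 or replicate 3 of 1.5 years (adjusted p between 0.0238 and 0.0435).

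Smad7, a protein-coding gene on chromosome 18 from 75367529 to 75395935 (plus strand), encodes the inhibitory Smad that acts on both the BMP and the TGF-β branch. In cardiac fibroblasts it was at 56.7, 57.9, and 51.2 CPM at postnatal day 1, at 75.4, 82.1, and 84.1 CPM at 4 weeks, and at 46.9 and 61.8 CPM at 14 weeks. It was at 53.0 and 80.2 CPM at 1 year and at 78.2 and 90.2 CPM at 1.5 years. The samples of 4 weeks and 1.5 years lay above those of postnatal day 1, which the 14-week samples straddled. The log2 fold change against postnatal day 1 was 0.54 at 4 weeks (SE 0.17, adjusted p = 0.0451) and 0.61 at 1.5 years (SE 0.18, adjusted p = 0.0409). The first call was lost when any 1 of the 10 samples other than those of 1 year was left out (adjusted p between 0.0511 and 0.123). The second call was lost without any 1 of 7 samples, namely each sample of postnatal day 1 and 1.5 years and replicates 1 and 2 of 4 weeks (adjusted p between 0.0503 and 0.276). The test over all ages (adjusted p = 0.0584) passed without either 1-year sample (adjusted p = 0.0339 and 0.0275). Under library size scaling the changes at 4 weeks and 1.5 years were 0.46 (adjusted p = 0.092) and 0.40 (adjusted p = 0.177).

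Whole hearts held Smad7 at 15.7, 16.9, and 16.4 CPM at postnatal day 1 and at 21.0, 27.4, and 24.1 CPM at 4 weeks, with no overlap on this TMM scale. Scaled by library size only, they ran from 21.9 to 24.9 and from 19.7 to 27.7 CPM and overlapped. The log2 fold change over this step, 0.57 (SE 0.21, adjusted p = 0.068), did not pass, and it ran from 0.06 to 0.66 over the alternatives. The 9 samples of the later ages ran from 15.6 to 24.7 CPM and overlapped both, and the difference at 1.5 years was 0.35 (SE 0.21, adjusted p = 0.205).

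Id1, a direct BMP target, was at 44.8, 44.7, and 43.1 CPM in the fibroblasts of postnatal day 1 and at 25.3, 25.2, and 76.7 CPM at 4 weeks. It was at 45.6 and 36.4 CPM at 14 weeks, at 22.1 and 22.3 CPM at 1 year, and at 17.3 and 88.7 CPM at 1.5 years. Its highest samples were replicate 3 of 4 weeks (76.7 CPM) and replicate 5 of 1.5 years (88.7 CPM). Endothelial markers set these 2 libraries apart from the others of their ages. Among the samples of 4 weeks and older, the 4 with an endothelial sum of at least 1582 CPM held 36.4 to 88.7 CPM of Id1 and the 5 others, at 360 to 803 CPM, 17.3 to 25.3 CPM. The samples of postnatal day 1 did not follow this, with endothelial sums of 496 to 771 CPM beside Id1 at 43.1 to 44.8 CPM. With all samples, Id1 did not pass at 4 weeks (-0.06, SE 0.50, adjusted p = 0.987) or at 1.5 years (0.26, SE 0.56, adjusted p = 0.84). With those 2 libraries left out, only replicate 4 remained at 1.5 years, the sample with the lowest endothelial sum (360 CPM). Id1 was then lower than at postnatal day 1 at 4 weeks (-0.80) and at 1.5 years (-1.35), so that the direction at 1.5 years turned. Id1 is also expressed by endothelial cells, and the part of the endothelial markers in these differences was not tested beyond this omission.

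**Figure D3:**
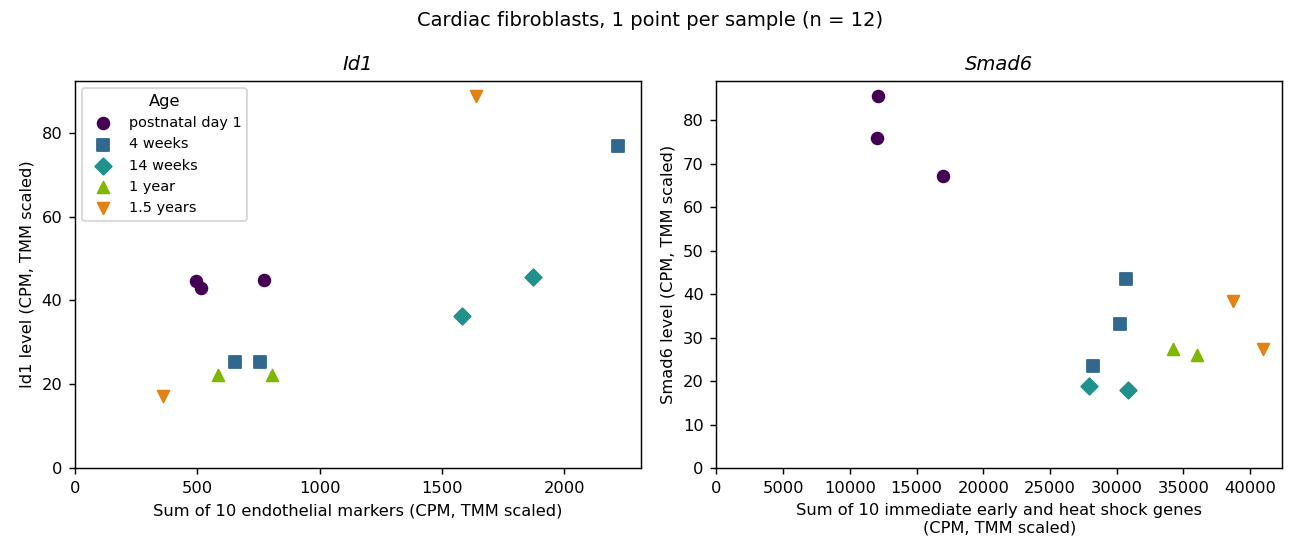
Left, the level of Id1 (vertical axis) against the summed level of 10 endothelial markers (horizontal axis) in the 12 cardiac fibroblast samples, and right, the level of Smad6 against the summed level of 10 immediate early and heat shock genes, all in TMM-scaled CPM. The 2 highest Id1 samples, at 76.7 and 88.7 CPM, had endothelial sums of 2222 and 1639 CPM, and the 3 highest Smad6 samples are those of postnatal day 1.

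In whole hearts Id1 was at 36.1, 34.1, and 30.4 CPM at postnatal day 1, at 45.8, 49.6, and 49.7 CPM at 4 weeks, and at 40.7, 32.7, and 40.1 CPM at 14 weeks. It was at 56.1, 41.6, and 28.7 CPM at 1 year and at 48.8, 68.7, and 63.1 CPM at 1.5 years. The 4-week and 1.5-year samples lay above those of postnatal day 1 on this TMM scale, and the 1-year samples ran across the ranges of the younger ages. Scaled by library size only, the samples of postnatal day 1 (42.8 to 50.4 CPM) overlapped those of 4 weeks (42.95 to 52.4 CPM) and 1.5 years (46.0 to 67.9 CPM). The log2 fold change at 1.5 years was 0.85 (SE 0.21, adjusted p = 0.00537). It was 0.25 (adjusted p = 0.383) with library size scaling and 0.07 (adjusted p = 0.838) with offsets for transcript length and GC content. At 4 weeks it was 0.53 (SE 0.21, adjusted p = 0.0937), and it passed without replicate 3 of 1 year (0.53, adjusted p = 0.0477). Over the alternatives the value at 4 weeks ran from 0.02 to 0.59. The test over all ages (adjusted p = 0.0272) did not pass without replicate 2 or 3 of postnatal day 1 or of 1.5 years (adjusted p between 0.0514 and 0.102).

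Id3, likewise a direct BMP target, was at 225, 255, and 283 CPM in the fibroblasts of postnatal day 1 and at 256, 229, and 341 CPM at 4 weeks. It was at 176 and 137 CPM at 14 weeks, at 349 and 330.3 CPM at 1 year, and at 449.6 and 452 CPM at 1.5 years. The 14-week samples were the lowest and the 1.5-year samples the highest, both apart from every other sample. Id3 fell by 0.82 on the log2 scale from 4 to 14 weeks (SE 0.18, adjusted p = 0.0264) and rose by 1.12 from 14 weeks to 1 year (SE 0.20, adjusted p = 0.0142). Each of these calls was lost without either 14-week sample, the first also without replicate 1 of 4 weeks (adjusted p between 0.0539 and 0.336) and the second also without either 1-year sample (adjusted p between 0.0578 and 0.186). With length and GC offsets they were -0.72 (adjusted p = 0.0741) and 0.78 (adjusted p = 0.137), the first did not pass in a fit of only the 2 ages (-0.80, adjusted p = 0.0919), and the second did not pass with a replicate block (0.97, adjusted p = 0.167) or with block and offsets (0.54, adjusted p = 0.768). Against postnatal day 1 it was higher by 0.83 at 1.5 years (SE 0.18, adjusted p = 0.00555). With the 2 endothelial-rich libraries left out, which leaves only replicate 4 at 1.5 years, Id3 was higher by 0.82. The immediate early and heat shock sum was also highest in the 1.5-year samples (40970 and 38700 CPM), and its part in the Id3 level was not tested.

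In whole hearts Id3 was at 43.8, 43.1, and 46.4 CPM at postnatal day 1, at 44.7, 46.0, and 42.1 CPM at 4 weeks, and at 30.5, 37.8, and 35.9 CPM at 14 weeks. It was at 61.4, 46.4, and 38.4 CPM at 1 year and at 53.5, 78.0, and 71.8 CPM at 1.5 years. The 14-week hearts were the lowest group, and the 1.5-year hearts overlapped those of 1 year. Against postnatal day 1 the log2 fold change at 1.5 years was 0.61 (SE 0.18, adjusted p = 0.0185). It did not pass without replicate 2 or 3 of 1.5 years (0.49 and 0.56, adjusted p = 0.085 and 0.0523), and it was 0.01 (adjusted p = 0.976) with library size scaling and -0.13 (adjusted p = 0.616) with length and GC offsets.

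**Figure D4:**
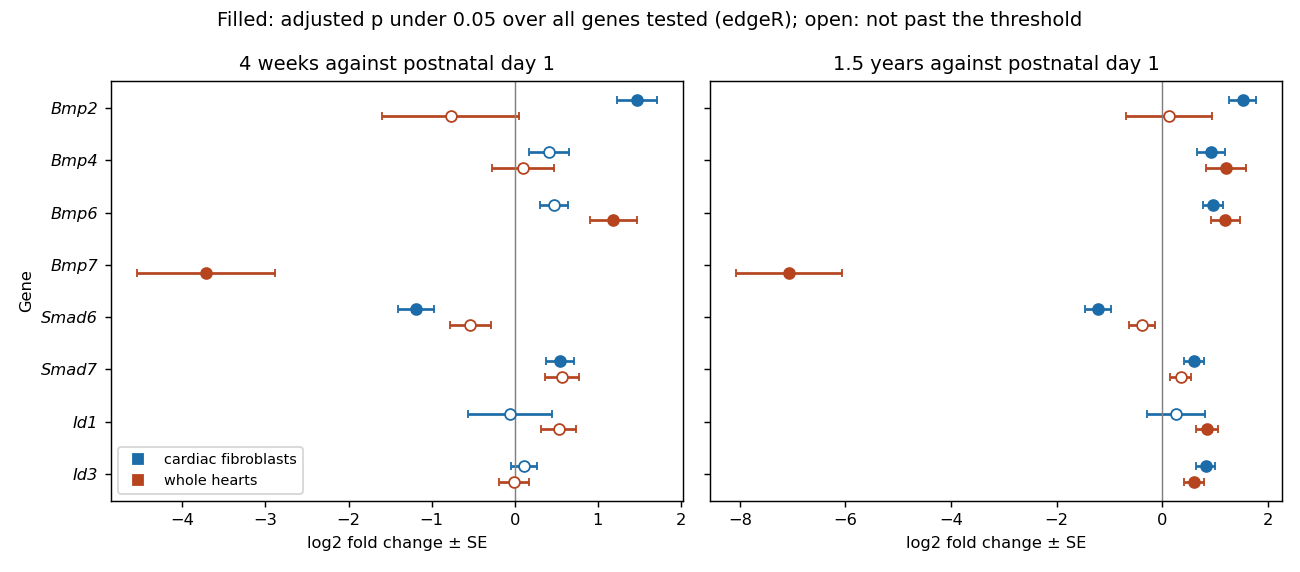
Log2 fold changes (horizontal axis) with SE of the members against postnatal day 1 at 4 weeks (left) and 1.5 years (right) in cardiac fibroblasts (blue) and whole hearts (red), from edgeR. Filled symbols passed an adjusted p under 0.05, and Bmp7 is not drawn for fibroblasts, where it was at or near 0 counts. The Bmp7 values in whole hearts are -3.71 and -7.07, and the Smad6 values in fibroblasts are -1.19 and -1.21.

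Averaged over the 5 ages, all 8 members differed between the tissues in a fit over all 27 samples, in which 56.8% of the 20650 genes tested did. Only the fibroblasts were digested and sorted, so that isolation cannot be told apart from tissue. Their immediate early and heat shock sum was 12040 to 40970 CPM against 155 to 573 CPM in whole hearts, and its part was not tested. Cardiac fibroblasts held more Bmp2 (log2 difference 4.02, SE 0.26), Bmp4 (2.73, SE 0.15), Bmp6 (1.84, SE 0.12), Id3 (2.23, SE 0.09), and Smad7 (1.40, SE 0.09), with adjusted p values of at most 1.37e-12. Bmp7 was lower in fibroblasts (adjusted p = 2.24e-06), with a mean of 0.156 CPM against 8.05 CPM in whole hearts. Smad6 (0.32, SE 0.12, adjusted p = 0.0212) and Id1 (-0.51, SE 0.19, adjusted p = 0.028) had the smallest differences. With length and GC offsets Smad6 was -0.02 (adjusted p = 1) and Id1 was 0.63 (adjusted p = 0.00589), so that neither direction held in this setting. Smad6 was 0.28 (adjusted p = 0.0658) without replicate 5 of 1.5 years in fibroblasts, and the Id1 call was lost on leaving out any 1 of 14 samples (adjusted p between 0.0511 and 0.129), 3 of them fibroblasts and 11 whole hearts. Those were replicate 6 of 14 weeks, replicate 4 of 1.5 years, and replicate 5 of 1 year among the fibroblasts and, among the hearts, every sample of 4 and 14 weeks and of 1.5 years and replicates 1 and 2 of 1 year. Without replicate 5 of the 1.5-year fibroblasts, which leaves only replicate 4 at that age, the Id1 difference was -0.82.

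Per kilobase of exon, a scale on which genes can be compared, the order of mean levels in cardiac fibroblasts was Id3 (162 CPM per kb), Id1 (35.4), Bmp4 (25.9), Bmp6 (23.6), Smad7 (15.1), Smad6 (12.6), Bmp2 (11.5), and Bmp7 (0.0388). In whole hearts the order was Id1 (38.3 CPM per kb), Id3 (26.8), Smad6 (6.69), Bmp6 (5.51), Smad7 (4.46), Bmp4 (3.29), Bmp7 (2.00), and Bmp2 (0.526). These orders are of means over all samples and shifted with age. Id3 was the highest member at every age in fibroblasts, but Id1, at 35.3 CPM per kb at 14 weeks and 19.1 at 1 year, was below Bmp4 at both (40.3 and 27.4) and below Bmp6 at 1 year (28.4). Bmp4 and Bmp6 stood above both inhibitory Smads in fibroblasts from 4 weeks on, whereas at postnatal day 1 Smad6 (23.8) stood above Bmp4 (16.3) and Bmp6 (15.8). In whole hearts Id1 and Id3 were the highest at every age, and Bmp6 was above Smad6 at 4 weeks (6.41 against 6.35) and 14 weeks (6.57 against 5.11) and below it at the other ages. At postnatal day 1, Bmp7 was the highest of the 4 ligands in whole hearts, with 8.40 CPM per kb against 2.82 for Bmp6.

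**Figure D5:**
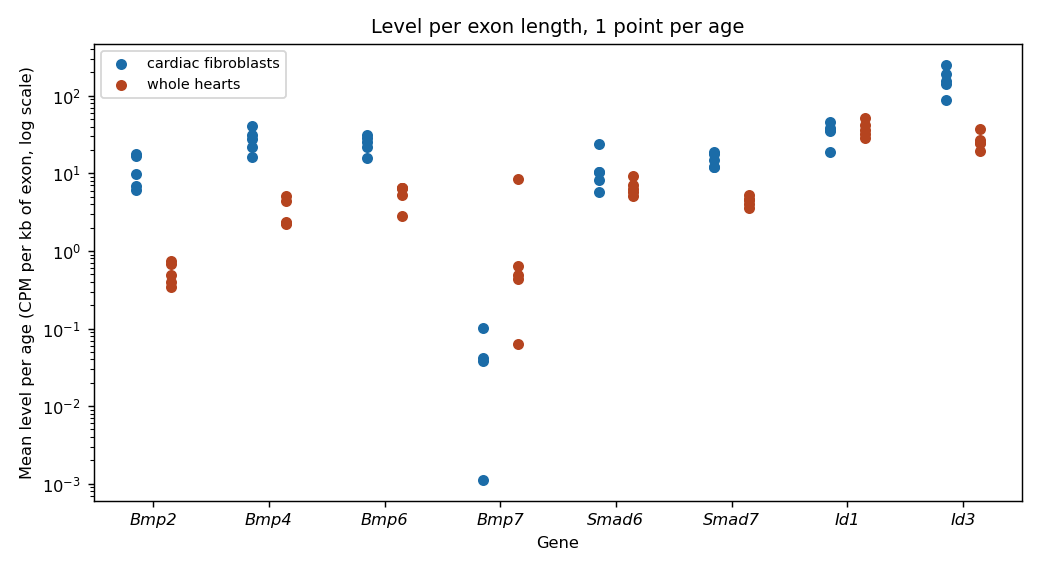
Mean level of each member per kilobase of exon (vertical axis, log scale, CPM per kb), with 1 point per age for cardiac fibroblasts (blue) and whole hearts (red). Ages with a mean of 0, which is Bmp7 in fibroblasts at 14 weeks, are not drawn. The Bmp7 point of whole hearts at 8.40 CPM per kb is postnatal day 1.

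An interaction term over all 27 samples tested whether the tissues changed differently from postnatal day 1, and no member passed at 4 weeks (7.14% of all genes did) or at 1.5 years (13.6%). The study describes the fibroblasts as isolated from the profiled hearts, but which samples share an animal is not given in the sources used here, so the fit treats all samples as independent. With a replicate block on the sample numbers, Bmp2 passed at 4 weeks (2.41, adjusted p = 0.0423) and Bmp7 at 1.5 years (adjusted p = 0.0173). The tissues share numbers only at postnatal day 1 and 4 weeks, so that the block pairs no samples of 1.5 years. At 4 weeks 1 member, Bmp2, had an unadjusted p under 0.05, with a difference of 2.23 (SE 0.71, adjusted p = 0.0588) in favor of fibroblasts, and DESeq2 called it (2.06, adjusted p = 0.0362). It also passed without replicate 1 of postnatal day 1, replicate 1 of 4 weeks, or replicate 3 of 1.5 years of the hearts (2.15 to 3.05, adjusted p between 0.00662 and 0.0461). At 1.5 years Bmp7 and Smad6 had an unadjusted p under 0.05, and DESeq2 called both. The difference for Smad6 was -0.86 (SE 0.37, adjusted p = 0.129), and -1.15 (adjusted p = 0.0406) without replicate 1 of the 1.5-year hearts. That for Bmp7, adjusted p = 0.0606, rests on fibroblast samples near 0 counts, and it passed without replicate 2 of postnatal day 1 in fibroblasts or replicate 1 of the 1.5-year hearts (adjusted p between 0.000386 and 0.00602). For Id1 the difference at 1.5 years was -0.62 (SE 0.60, adjusted p = 0.583). It became -2.20 without replicate 5 of the 1.5-year fibroblasts, which leaves only replicate 4 at that age. For Bmp4, Bmp6, Smad7, and Id3 the differences at 1.5 years were between -0.30 and 0.23 (SE 0.27 to 0.46), all within 1 SE of 0. The median difference of all genes was not 0 but 0.17 at 4 weeks and 0.32 at 1.5 years. At 1.5 years it was 0.09 with median-of-ratios scaling and 0.73 with library size scaling. With length and GC offsets the difference for Id3 was 0.78 (adjusted p = 0.047), which passed, and 0.80 (adjusted p = 0.0304) with the replicate block added.

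Of 52 other genes of the pathway, 49 had rows, and 46 were tested in cardiac fibroblasts and 43 in whole hearts. From postnatal day 1 to 4 weeks in fibroblasts, 9 of the 46 rose and 3 fell, beside 9.28% and 6.2% of all genes, and their median log2 change was 0.06 beside 0.0 for all genes. Extracellular antagonists and modulators made up 5 of the 9 that rose. Among them Nbl1, an antagonist of the DAN family, went from 40.3 to 282 CPM (log2 fold change 2.81, SE 0.18, adjusted p = 6.48e-07). Chrd, which encodes chordin, went from 8.66 to 47.6 CPM (2.46, SE 0.23, adjusted p = 1.05e-05), and the secreted protease gene Htra1 from 47.5 to 206 CPM (2.12, SE 0.16, adjusted p = 2.32e-06). The other antagonists that rose were Fst and Twsg1. Of the genes that fell, Atoh8, a transcription factor gene induced by BMP, went from 35.9 to 11.5 CPM (-1.64, SE 0.37, adjusted p = 0.00906), and the ligand genes Gdf6 and Gdf10 had log2 fold changes of -0.99 (SE 0.26, adjusted p = 0.0221) and -0.90 (SE 0.26, adjusted p = 0.0309). Of the 6 listed targets tested, Atoh8 fell, Msx1 rose, and the others did not pass. Among the members, Smad6 fell, and the targets Id1 (-0.06) and Id3 (0.11) did not pass. Over this interval the immediate early and heat shock sum increased as well, as given above, and its part in these changes was not tested.

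Fewer of these genes moved in fibroblasts in the steps after 4 weeks. From 4 to 14 weeks 3 of the 46 rose and 2 fell, beside 1.79% and 2.08% of all genes, with Gdf10 back up from 38.6 to 95.9 CPM (1.31, SE 0.28, adjusted p = 0.023), Bmper, an extracellular modulator, up from 36.6 to 82.2 CPM (1.17, SE 0.23, adjusted p = 0.0169), and the type II receptor gene Bmpr2 up from 179.7 to 289.6 CPM (0.69, SE 0.12, adjusted p = 0.00962). Fstl1, a follistatin-like gene, fell from 3605 to 1950.0 CPM (-0.89, SE 0.21, adjusted p = 0.0394) and Nbl1 from 282 to 155 CPM (-0.86, SE 0.20, adjusted p = 0.0305). From 14 weeks to 1 year 2 rose and 2 fell, beside 1.31% and 0.474%. Gdf6 rose from 8.21 to 29.2 CPM (1.83, SE 0.33, adjusted p = 0.0157) and Bmper to 193 CPM (1.23, SE 0.26, adjusted p = 0.0352), while Bmpr2 fell back to 185 CPM (-0.65, SE 0.14, adjusted p = 0.0352). Hey1, a target in endothelium, fell from 21.6 to 6.40 CPM (-1.76, SE 0.37, adjusted p = 0.0343). The endothelial sum was 656 to 2222 CPM at 4 weeks, 1582 and 1874 CPM at 14 weeks, and 584 and 803 CPM at 1 year. The sum of 8 smooth muscle and pericyte markers at these ages was 109 to 194, 406 to 520, and 303 to 327 CPM. Their part in the changes of Hey1, Bmpr2, and the other genes of these steps was not tested.

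At 1.5 years against postnatal day 1, 11 of the 46 were higher in fibroblasts and 1 was lower, beside 9.86% and 6.46% of all genes, with a median log2 change of 0.37 beside 0.0 for all genes. Antagonists and modulators contributed 6 of those that were higher and receptors and co-receptors 4 (Acvrl1, Bmpr2, Rgma, and Rgmb). Fst, which encodes follistatin, went from 1.91 to 18.5 CPM (3.28, SE 0.57, adjusted p = 0.00148), Nbl1 from 40.3 to 357 CPM (3.15, SE 0.20, adjusted p = 3.11e-07), and Chrd from 8.66 to 52.9 CPM (2.61, SE 0.24, adjusted p = 8.35e-06). The gene that was lower, Nkx2-5, a cardiomyocyte transcription factor gene, went from 3.76 to 0.00779 CPM (adjusted p = 0.0352). The summed level of 8 cardiomyocyte markers was 645 to 725 CPM in the fibroblasts of postnatal day 1 and 14.7 to 197 CPM later, and its part in the Nkx2-5 result was not tested.

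In whole hearts, 7 of the 43 rose and 4 fell from postnatal day 1 to 4 weeks, beside 12.1% and 6.1% of all genes, with a median log2 change of -0.02 beside -0.09. Hfe2, which encodes the co-receptor hemojuvelin of skeletal and heart muscle, rose from 34.3 to 238 CPM (2.79, SE 0.20, adjusted p = 7.14e-08), Rgma, a gene of the same family, from 14.3 to 54.2 CPM (1.93, SE 0.21, adjusted p = 5.53e-06), and Chrd from 0.406 to 2.96 CPM (2.86, SE 0.81, adjusted p = 0.0199). The other Id genes fell, Id2 from 28.3 to 9.80 CPM (-1.53, SE 0.29, adjusted p = 0.00122) and Id4 from 2.40 to 0.00485 CPM (adjusted p = 0.00367). Fstl3, which encodes a secreted activin and BMP antagonist, fell from 13.2 to 4.92 CPM (-1.42, SE 0.38, adjusted p = 0.0138). From 4 to 14 weeks 1 of the 43 passed, Fstl1, which fell from 188 to 75.4 CPM (-1.32, SE 0.16, adjusted p = 0.000299).

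At 1.5 years against postnatal day 1, 7 of the 43 were higher and 6 lower in whole hearts, beside 15.6% and 16.3% of all genes, with a median log2 change of -0.45 beside -0.15. Chrd (3.54, SE 0.83, adjusted p = 0.0037) and Hfe2 (3.18, SE 0.21, adjusted p = 1.61e-08) were again higher, as was Dand5, an antagonist gene of the DAN family, which went from 5.22 to 22.5 CPM (2.11, SE 0.27, adjusted p = 1.8e-05). Fstl1 was lower, at 116 against 317 CPM (-1.45, SE 0.16, adjusted p = 3.14e-06), as were Fstl3 (-1.26, SE 0.38, adjusted p = 0.0172) and the type I receptor gene Acvr1, at 10.1 against 20.8 CPM (-1.05, SE 0.34, adjusted p = 0.0278). Chrd was higher and Nbl1 was called in both tissues at both ages against postnatal day 1. Across the tissues, 33 of 49 of these genes differed at the mean of the ages, 27 of them higher in fibroblasts and 6 lower, beside 27.7% and 29.1% of all genes.

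The gene most like each member was sought by Pearson's r of log2 CPM within a tissue, over 13309 genes in 12 fibroblast samples and 13228 genes in 15 whole hearts with a mean of at least 1 CPM. These are the highest of many values over samples that share ages and libraries, and they are descriptions. In fibroblasts the most alike were Ccnl1 for Bmp2 (r = 0.95), Tmx3 for Bmp4 (0.96), Npy1r for Bmp6 (0.95), Col18a1 for Smad6 (0.96), Rps26-ps1 for Bmp7 (0.89, with 6 samples at 0 counts), Grk2 for Smad7 (0.90), Adcy4 for Id1 (0.95), and Adamts4 for Id3 (0.96). The next genes were Gadd45a for Bmp2 (0.94), Enpp4 for Bmp4 (0.95), Sirt2 for Bmp6 (0.95), Ddx24 for Bmp7 (0.87), Mtss1l for Smad6 (0.95), Mllt6 for Smad7 (0.85), Fli1 for Id1 (0.91), and Csrnp1 for Id3 (0.94). Of these, Gadd45a is a stress response gene and Fli1 a transcription factor gene of endothelial and blood cells. In whole hearts F2r, a thrombin receptor gene, was the most like Bmp7 (0.96), followed by Csnk1e (0.95). The others there were Smyd3 for Bmp2 (0.81), Gm7730 for Bmp4 (0.92), Dcun1d2 for Bmp6 (0.92), Cox8a for Smad6 (0.89), Gm15533 for Smad7 (0.84), Atp5l2-ps for Id1 (0.88), and Arpc1a for Id3 (0.92).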

How the data were processed

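RNA-Seq was performed on polyadenylated RNA of 12 samples of PDGFRα cardiac fibroblasts and 15 whole heart samples. The authors aligned single-end reads to mm10 with STAR 2.5.3a and deposited raw counts per gene, without normalization, in 1 table per tissue. How many hearts made up a fibroblast sample and which strand setting was used for counting are not given in the sources used here. The samples of postnatal day 1 and 4 weeks held both Xist and Ddx3y, as given above. Groups were taken from the labels. Total counts per sample, 46091271 to 76758831, set the counting precision. Nothing in the labels ties samples to named animals, so p-values measure the spread between these samples.

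The members and the gene lists were chosen with earlier results of these data known, so counts over them are descriptions. Genes were kept by edgeR's filterByExpr, scaled by TMM, and tested with edgeR 4.0.16 (quasi-likelihood F test, R 4.3.3) in 1 fit per tissue with all ages and in 1 fit over all 27 samples for the tissue and its interaction with age. Benjamini-Hochberg adjustment ran over every gene tested, with a threshold of 0.05. All members were named, and of the other pathway genes those that passed, had no overlap between the samples compared, and had a mean of at least 1 CPM in either group, at most the 3 largest rises and 3 largest falls. No fold is given against a group at or under 3 counts in every sample. The alternatives were DESeq2 1.42.0, other scalings, other filters, offsets for transcript length and GC content, a replicate block, the 2 compared ages alone, and leaving out each sample. The omission of both fibroblast libraries that endothelial markers set apart from the others of their ages was added after seeing the data. The code was tested on simulated counts. Tables and figures were made with python 3.11.15, pandas 2.3.3, numpy 2.4.6, and matplotlib 3.10.9. Upstream sequences were taken from RefSeq (GRCm38.p6), which matched 5 of the 8 members. Those of Bmp6 and Id3 overlap annotated exons and that of Smad7 is not shown.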

Additional observations from a re-analysis of the deposited data

How the results depend on the processing

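Over all alternatives, 3109 values of single genes were recomputed: 2928 kept their direction and side of the threshold or were called in neither fit, 117 called values no longer passed, 57 newly passed, and 7 values called in either fit turned direction. Of 1985 values called in neither, 79 differed in sign. The 7 that turned were the Smad6 difference between tissues (-0.02 with length and GC offsets and -0.03 with the replicate block added), the Id1 difference between tissues (0.63 and 0.60 in the same settings), Id3 in whole hearts at 1.5 years (-0.13 in both), and Id1 in fibroblasts at 1.5 years without both endothelial-rich libraries (-1.35). The cause was not tested.

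Counts of members that passed moved as follows. The tissue difference at 4 weeks, 0 members, was 1 with DESeq2, library size only, library size without mitochondrial genes, at least 10 counts in every sample, the replicate block with or without offsets, and both libraries left out. That at 1.5 years, 0 members, was 2 with DESeq2 and with block and offsets, and 1 with library size only, offsets, the block, or both libraries left out. In fibroblasts from 4 to 14 weeks the 2 became 4 with DESeq2, 1 with offsets, and 0 with the 2 ages alone, and from 14 weeks to 1 year the 1 became 0 with offsets or the block, 3 with the 2 ages alone, and 2 without both libraries. In whole hearts the 5 over all ages became 3 without mitochondrial genes and 2 with offsets, the 2 at 4 weeks became 1 with at least 10 counts, the 0 from 1 year to 1.5 years became 1 with DESeq2, and the 5 at 1.5 years against postnatal day 1 became 2 with library size only or block and offsets and 3 without mitochondrial genes or with offsets.

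Leaving out 1 sample gave 4 to 6 members in fibroblasts over all ages, 2 to 3 at 4 weeks, 0 to 3 from 4 to 14 weeks, 0 to 1 from 14 weeks to 1 year, 0 to 0 from 1 year to 1.5 years, and 3 to 6 over the whole interval. In whole hearts it gave 2 to 6 over all ages, 2 to 3 at 4 weeks, 0 to 0 at each of the next 2 steps, 0 to 2 from 1 year to 1.5 years, and 4 to 5 over the whole interval, between tissues 7 to 8, and for the tissue differences 0 to 1 at 4 weeks and 0 to 2 at 1.5 years. Where an age is left with 1 sample, that sample is assumed to vary like the other groups.

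Samples of different ages cannot come from the same animal, and the labels do not say whether a number shared between tissues marks a shared animal. Of 7 same-numbered pairs among the fibroblast ages 2 had a correlation of their deviations from the group means over 0.1, of 30 among the heart ages 1, and of 6 between the tissues 0. With the replicate block, 2 members passed in fibroblasts at 4 weeks, 0 from 14 weeks to 1 year, and 0 from 1 year to 1.5 years, the fibroblast steps whose ages share numbers enough to be fitted. In whole hearts 5 passed over all ages, 2 at 4 weeks, and 5 at 1.5 years, and 8 between tissues. Depth limits statements on Bmp7 in fibroblasts and in the oldest hearts, which held 0 to 83 counts.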
